A study of Mus musculus with 6 samples.

Results

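The MHC class I antigen presentation genes are 10 genes, taken by symbol for their place in the pathway: the class I heavy chains *H2-K1* and *H2-D1*, their light chain *B2m*, the transporter subunits *Tap1* and *Tap2*, tapasin (*Tapbp*), the immunoproteasome subunits *Psmb8*, *Psmb9* and *Psmb10*, and the regulator *Nlrc5*. All 10 were matched to a row among the 55487 gene rows of the tables, and all 10 were abundant enough to be tested. They were measured by RNA sequencing of hepatocytes, the main epithelial cells of the liver, from mice aged 6 to 8 weeks, and RNA was taken 48 h after the cells were isolated. The 2 groups were AEG-1-WT and homozygous AEG-1-C75S, with 3 libraries each, and every library carried the treatment label Control. The libraries held 16944723 to 21044292 counts on genes. AEG-1 is a membrane protein encoded in the mouse by *Mtdh*. In C75S the cysteine at position 75, its palmitoylation site, is a serine. Heterozygotes were mated to give mice of both genotypes. Since no label ties a library to its own mouse, n is the number of libraries, and the p-values measure only the spread between these libraries, which may be technical.

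MHC class I molecules show peptides from inside the cell to cytotoxic T cells. Proteasomes cut proteins into peptides, the TAP transporter carries the peptides into the endoplasmic reticulum, and tapasin with other chaperones loads them onto a heavy chain paired with beta-2 microglobulin. Interferon raises most of these genes, and NLRC5 is a transcriptional activator specific to the class I pathway. Hepatocytes are known for a low resting level of class I that rises in inflammation, and they also secrete a soluble class I-like protein, the product of *H2-Q10*.

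Of the 10 genes, 1 changed between the genotypes. *Tap1* fell in C75S, with a log2 fold change of -0.44 (SE 0.10, adjusted p = 0.0158 in edgeR's quasi-likelihood test with Benjamini-Hochberg adjustment over all genes). In the same test 3.11% of the 12741 genes tested were called, 1.37% lower and 1.74% higher. An unadjusted p under 0.05 was reached by 1 of the 10 genes, *Tap1*, and by 13.4% of all genes tested. In bulk RNA, fewer cells of a type and less RNA per cell cannot be told apart. The other 9 genes did not pass, and their log2 fold changes lay between -0.04 for *Psmb8* and 0.30 for *Psmb9*. The median log2 fold change of the 10 genes was 0.04 and that of all genes tested was -0.003. In 4 of the 10 genes the genotypes did not overlap: *H2-D1*, *Tapbp* and *Psmb10* were higher in every C75S library and *Tap1* was lower in every one. Such a separation was found in 18.0% of all genes tested, 9.02% with every C75S library higher and 8.96% with every C75S library lower.

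**Figure D1:**
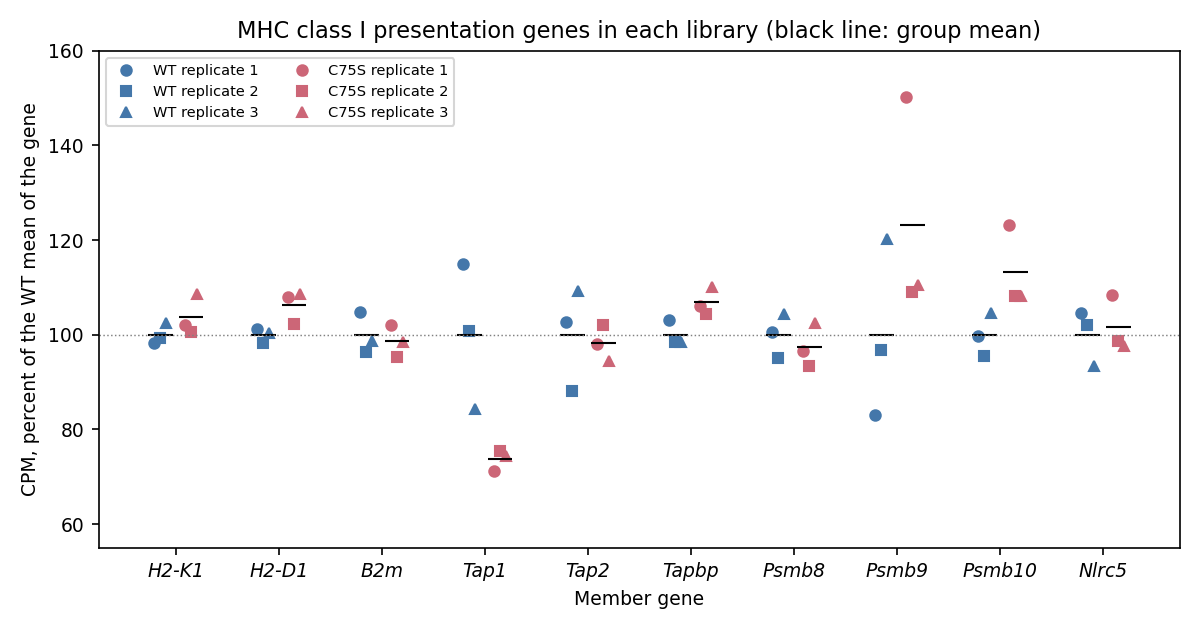
Level of each gene in each library, as a percentage of that gene's mean in the 3 WT libraries, with 1 point per library, 1 shape per replicate number and black lines at group means. The 3 C75S points of *Tap1* lie together below all 3 WT points, while those of the heavy chains and *B2m* lie close to the WT mean in both genotypes.

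Promoter sequences of RefSeq (GRCm38.p6) were found for 8 of the 10 genes. They are shown for *B2m* and *H2-K1*, which encode the light chain and a heavy chain of one complex, for *H2-Q10*, the class I gene that rose, and for *Tap1*, the transporter gene that fell. Each line runs 5′ to 3′ on the gene's strand, and capitals mark matches to 3 motifs searched on both strands: the core of the interferon-stimulated response element (GAAA, any 2 bases, GAAA), an NF-kB element (GGGNNTTCC, N being any base) and the CCAAT box (CCAAT, or ATTGG when it lies on the other strand). The stretches end before the annotated gene start, and for *Tap1* the 30 bases around the match are shown. They are chr2:122147437-122147685 on the plus strand for *B2m*, chr17:34000348-34000583 on the minus strand for *H2-K1*, chr17:35469839-35470088 on the plus strand for *H2-Q10* and chr17:34187321-34187350 on the plus strand for *Tap1*.
B2m: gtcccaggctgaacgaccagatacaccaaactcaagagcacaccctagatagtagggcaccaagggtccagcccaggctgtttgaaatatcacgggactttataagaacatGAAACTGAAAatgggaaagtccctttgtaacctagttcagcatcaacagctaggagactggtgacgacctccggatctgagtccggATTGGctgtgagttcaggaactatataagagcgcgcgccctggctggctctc
H2-K1: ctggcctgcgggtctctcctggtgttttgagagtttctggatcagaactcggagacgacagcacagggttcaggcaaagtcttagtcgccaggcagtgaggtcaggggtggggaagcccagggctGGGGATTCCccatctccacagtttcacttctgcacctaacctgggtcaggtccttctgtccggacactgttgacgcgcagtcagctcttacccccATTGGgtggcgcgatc
H2-Q10: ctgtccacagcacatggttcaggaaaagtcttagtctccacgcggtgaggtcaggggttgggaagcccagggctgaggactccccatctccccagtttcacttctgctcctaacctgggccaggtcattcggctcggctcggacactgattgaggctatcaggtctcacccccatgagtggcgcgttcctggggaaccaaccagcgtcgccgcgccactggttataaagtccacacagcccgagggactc
Tap1: ggggctcggctttCCAATcagcggctgcgc

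The upstream stretches of *H2-K1* and *H2-Q10* aligned over 182 bases, gaps left out, of which 158 were identical (86.8%). The NF-kB match of *H2-K1* lies 125 bases before one of its RefSeq starts and 111 before the other. At the aligned place *H2-Q10* differs by G2A and T6C, with positions counted from 1 at the first base of the match and the *H2-K1* base given first, and the motif's letters are therefore not found there. *H2-D1* holds the same 9 letters as *H2-K1*, 171 bases before its start. Over the windows from 250 bases before to 50 bases after a gene start, only the exact letters of each motif were searched. Elements spelled otherwise were not counted. The NF-kB letters were matched in 2 of the 8 genes, *H2-K1* and *H2-D1*, and in 5.82% of all 32851 promoter windows. The letters of the interferon element were matched in *B2m* alone among the 8, 139 bases before its start, and in 3.44% of all windows. A missing match does not show that a promoter lacks such an element. The CCAAT box was matched in 6 of the 8, and in 37.4% of all windows. Among the 6, *Tap1* and *Psmb9* are counted for the same match, since their windows overlap. The gamma-activated site (TTCNNNGAA) was matched in *Psmb8* alone, 97 bases before its start, and in 8.30% of all windows.

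*Tap1* and *Psmb9* are transcribed away from each other, and 225 bases separate their RefSeq starts. The CCAAT match printed for *Tap1* begins 222 bases before the RefSeq start of *Tap1* and, read on the other strand, 8 bases before that of *Psmb9*. These distances hold for RefSeq only. In GENCODE, used here for positions and exon lengths, *Psmb9* reaches 34187764, past the first base of *Tap1* at 34187553, and the genes share 212 exon bases. A match is a description of letters and not of a bound factor.

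The heavy chains and their light chain were the most abundant of the 10 genes. *H2-K1* (ENSMUSG00000061232, chromosome 17, 33996017 to 34000347 in GRCm38) was at 1009, 993 and 1073 CPM (counts per 1000000 counts of a library, on library sizes scaled by TMM) in C75S replicates 1 to 3 and at 971, 979.8 and 1011 CPM in WT replicates 1 to 3. The genotypes overlapped (log2 fold change 0.05, SE 0.05, edgeR adjusted p = 0.734). *H2-D1* (ENSMUSG00000073411, chromosome 17, 35262730 to 35267499) was at 752, 712 and 757 CPM in C75S and at 705, 684 and 699 CPM in WT. Every C75S library was higher, by a log2 fold change of 0.09 (SE 0.05) that did not pass the test (edgeR adjusted p = 0.492). The counts of these heavy chains rest on reads that could be placed uniquely. Their longest transcripts are 88.4% identical over 1515 bases, and *H2-K1* is 91.4% identical to *H2-Q4* over 945 bases, so the split of reads among class I genes is uncertain. The mouse strain and its H2 haplotype are not given in the sources used here, and the counts rest on the haplotype of the reference genome.

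*B2m* (ENSMUSG00000060802, chromosome 2, 122147686 to 122153083) encodes beta-2 microglobulin, the light chain that every classical class I molecule carries. It was at 1792, 1675 and 1728 CPM in C75S and at 1843, 1693 and 1733 CPM in WT. C75S and WT overlapped (log2 fold change -0.02, SE 0.06, 95% interval -0.13 to 0.09, edgeR adjusted p = 0.925). For *H2-K1* the interval was -0.06 to 0.16 and for *H2-D1* -0.02 to 0.19. The 3 genes each had between 13092 and 38812 counts per library.

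The TAP transporter is a pair of TAP1 and TAP2, both of which are needed to move peptides. *Tap1* (ENSMUSG00000037321, chromosome 17, 34187553 to 34197225) was at 15.96, 16.9 and 16.6 CPM in C75S and at 25.7, 22.6 and 18.9 CPM in WT, from 278 to 542 counts per library. The C75S libraries lay close together, below every WT library, and the WT libraries were widely spread with replicate 1 the highest. The mean was 16.5 ± 0.48 CPM in the C75S libraries and 22.4 ± 3.43 CPM in the WT libraries (± SD over 3), and the 95% interval of the log2 fold change was -0.65 to -0.23. *Tap1* kept its direction in each of 15 alternative fits and its call in 12. It lost the call without WT replicate 1 (log2 fold change -0.33, edgeR adjusted p = 0.101), without WT replicate 2 (-0.43, 0.0708) and without C75S replicate 1 (-0.42, 0.0646). The call therefore depended on single libraries. WT replicate 1 was also the library with the fewest genes detected, 17412 against 18125 to 18575 in the other 5, and the part of this in the *Tap1* result was not tested.

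*Tap2* (ENSMUSG00000024339, chromosome 17, 34203527 to 34216321) was at 20.6, 21.4 and 19.8 CPM in C75S and at 21.5, 18.5 and 22.9 CPM in WT. Its libraries overlapped between genotypes (log2 fold change -0.03, SE 0.09, 95% interval -0.22 to 0.17, edgeR adjusted p = 0.947). The ratio of *Tap1* to *Tap2*, each per kb of exon, was computed after the values were seen and is given without a test. It was 0.536, 0.545 and 0.580 in C75S and 0.826, 0.844 and 0.569 in WT. The ratio was low in WT replicate 3 as well, so the genotypes overlapped.

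Tapasin, the product of *Tapbp*, bridges TAP and empty class I molecules and edits their peptides. *Tapbp* (ENSMUSG00000024308, chromosome 17, 33915899 to 33929292) was at 102, 100.4 and 106 CPM in C75S and at 99.0, 94.6 and 94.7 CPM in WT. Every C75S library was higher, but the log2 fold change of 0.10 (SE 0.05, 95% interval -0.01 to 0.20) did not pass the test (edgeR adjusted p = 0.439). *Tapbp* shares 149 exon bases with *Zbtb22* on the same strand and 904 with the antisense gene *Gm19412*. Counting without strand gave 86.3% of the reads of strand-aware counting for *Tapbp*, 69.4% for *Tap2* and 68.8% for *Psmb8*, which overlap antisense genes as well.

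**Figure D2:**
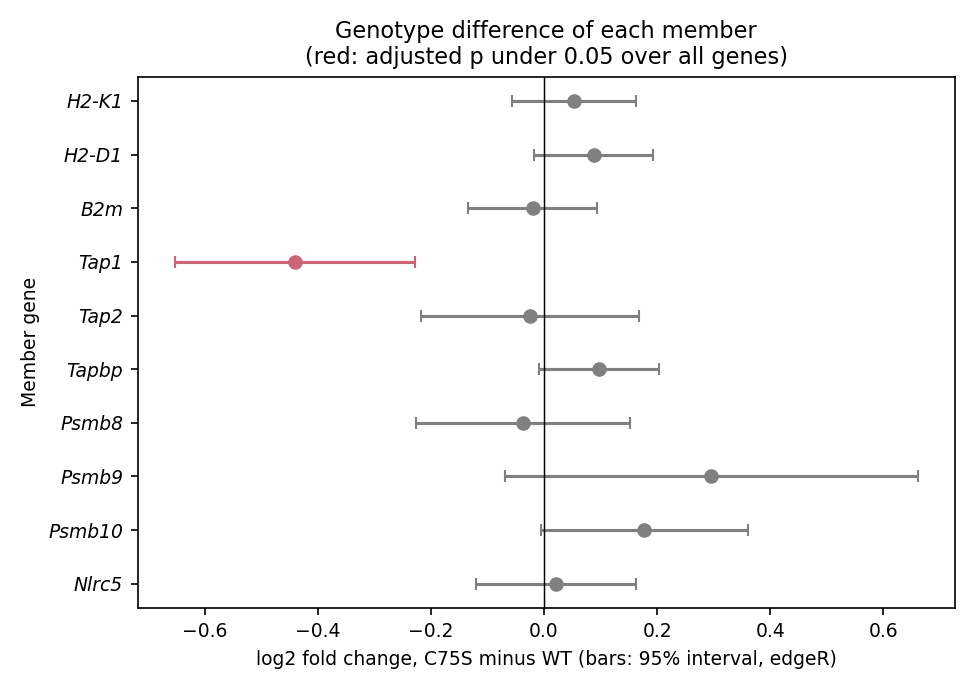
Difference between genotypes for each of the 10 genes, as the log2 fold change in C75S relative to WT (horizontal axis) with its 95% interval from edgeR. The red point is *Tap1*, with an interval of -0.65 to -0.23 that lies below 0, and the grey points are the 9 genes that did not pass, whose intervals all include 0.

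The immunoproteasome subunits PSMB8, PSMB9 and PSMB10 replace the catalytic subunits PSMB5, PSMB6 and PSMB7 and shift the peptides cut toward those that bind class I. *Psmb8* (ENSMUSG00000024338, chromosome 17, 34197721 to 34201454) was at 18.0, 17.4 and 19.1 CPM in C75S and at 18.8, 17.7 and 19.5 CPM in WT. The libraries of both genotypes overlapped (log2 fold change -0.04, SE 0.09, edgeR adjusted p = 0.914). *Psmb9* (ENSMUSG00000096727, chromosome 17, 34181987 to 34187764) was at 7.64, 5.55 and 5.62 CPM in C75S and at 4.23, 4.92 and 6.11 CPM in WT. C75S replicate 1 was the highest library, WT replicate 3 lay above the other two C75S libraries, and the log2 fold change of 0.30 (SE 0.18) did not pass (edgeR adjusted p = 0.508).

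*Psmb9* was the shallowest of the 10 genes, with 89 to 133 counts per library, and its 95% interval was the widest, from -0.07 to 0.66. It shares 212 exon bases with *Tap1* on the opposite strand, and 13.4% of its stranded counts were on the forward strand. That share was at most 1.59% in the other 9 genes. *Psmb10* (ENSMUSG00000031897, chromosome 8, 105935735 to 105938444) was at 25.1, 22.01 and 22.04 CPM in C75S and at 20.3, 19.4 and 21.3 CPM in WT. Every C75S library was higher, by a log2 fold change of 0.18 (SE 0.09, 95% interval -0.01 to 0.36) that did not pass (edgeR adjusted p = 0.394).

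The constitutive subunits did not pass the test either. Their log2 fold changes were 0.01 for *Psmb5* (edgeR adjusted p = 0.975), 0.02 for *Psmb6* (0.911) and 0.10 for *Psmb7* (0.497). The ratio of each immunoproteasome subunit to its constitutive counterpart was taken in each library from counts per kb of annotated exon. *Psmb8* to *Psmb5* was 0.141 ± 0.014 in C75S libraries and 0.145 ± 0.008 in WT libraries (± SD over 3), a log2 difference of -0.04. *Psmb9* to *Psmb6* was 0.0175 ± 0.0031 in C75S and 0.0147 ± 0.0039 in WT, a log2 difference of 0.27. *Psmb10* to *Psmb7* was 0.356 ± 0.025 in C75S and 0.337 ± 0.034 in WT, a log2 difference of 0.08. The genotypes overlapped in all 3 ratios, and the two-sided exact permutation p was 0.8, 0.4 and 0.4, or 0.8, 0.6 and 0.6 when adjusted over the 3 ratios. With 3 libraries against 3 that test cannot go below 0.1. On this measure each constitutive transcript was more abundant than its immunoproteasome counterpart in every library. The size of the ratios depended on the length used. With the longest principal transcript in place of all exon bases, the WT means were 0.301 for *Psmb8* to *Psmb5*, 0.0169 for *Psmb9* to *Psmb6* and 0.149 for *Psmb10* to *Psmb7*. The log2 differences between genotypes were the same with either length.

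**Figure D3:**
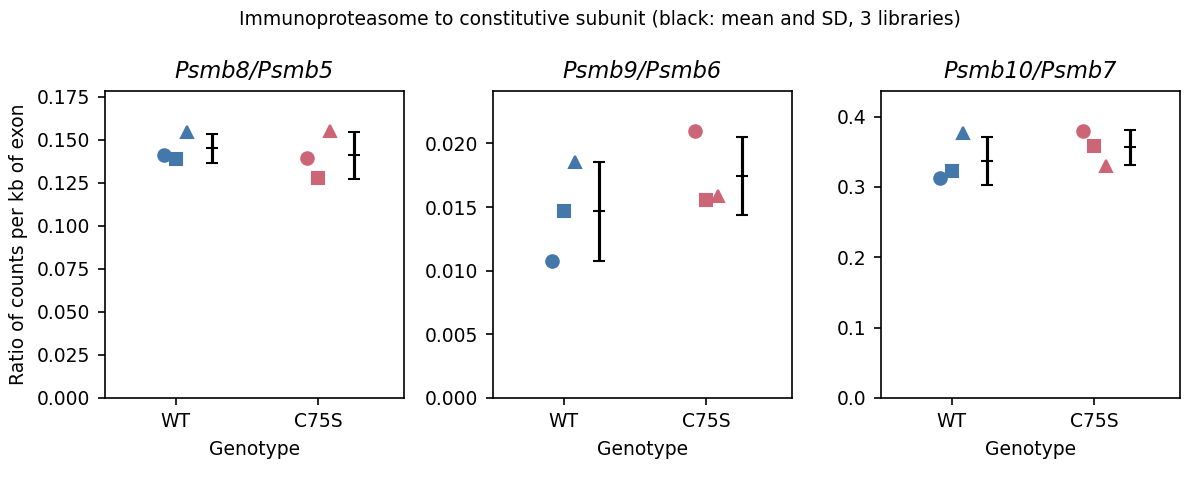
Ratio of each immunoproteasome subunit to its constitutive counterpart, from counts per kb of exon (vertical axes, each starting at 0), with coloured points for libraries and black marks for the mean and SD of each genotype. The ratios were near 0.14 for *Psmb8* to *Psmb5*, below 0.022 for *Psmb9* to *Psmb6*, and between 0.313 and 0.380 for *Psmb10* to *Psmb7*. Their size depended on the length used, and the genotypes overlapped in each panel.

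*Nlrc5* (ENSMUSG00000074151, chromosome 8, 94434356 to 94527272), the class I transactivator, was at 47.5, 43.2 and 42.8 CPM in C75S and at 45.9, 44.7 and 40.9 CPM in WT. C75S and WT libraries overlapped (log2 fold change 0.02, SE 0.07, 95% interval -0.12 to 0.16, edgeR adjusted p = 0.937). Its class II counterpart *Ciita*, the master regulator of MHC class II genes, had 0 counts in all 6 libraries, which allows a level of up to 0.142 to 0.172 CPM (3 counts in a library).

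Levels of different genes were compared in WT as CPM per kb of annotated exon. *B2m* stood first at 2042 ± 90.0 CPM per kb (SD, n = 3), above *H2-K1* at 336 ± 7.21 and *H2-D1* at 269.9 ± 4.12. *Tapbp* followed at 26.5 ± 0.70 and *Psmb10* at 11.9 ± 0.54. Over all 6 libraries the ranges of these neighbours did not overlap. *Tap2* at 5.54 ± 0.60, *Psmb8* at 5.52 ± 0.26 and *Nlrc5* at 5.16 ± 0.31 could not be ordered, since the ranges of neighbours overlapped. *Tap1* at 4.09 ± 0.63 and *Psmb9* at 1.39 ± 0.26 came last. With the length of the longest principal transcript in place of all exon bases, the first 5 genes and the last kept their places, while *Psmb8* moved to 6, *Tap1* to 7, *Tap2* to 8 and *Nlrc5* to 9. The order of these 4 therefore depended on the length used.

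Of the 10 genes, 7 lie in a 1.35 Mb part of the H2 complex on chromosome 17, between 33915899 and 35267499. This interval runs from the start of *Tapbp* to the end of *H2-D1* and leaves out class I genes beyond it. Among those left out is *H2-Q10*, which begins at 35470089 and was called higher (edgeR adjusted p = 0.0496). In that interval 55 other genes were tested and edgeR called 0 of them at an adjusted p under 0.05, beside 3.11% of all genes. At an unadjusted p under 0.05 there were 6 of the 55, beside 13.4% of all genes, and DESeq2 and limma-voom also called 0. Their median log2 fold change was -0.02.

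Among the other class I and class I-like genes, *H2-Q10* rose and no other member passed. *H2-Q10* (chromosome 17, 35470089 is its first annotated base) was at 604, 629 and 646 CPM in C75S and at 535, 536 and 579.97 CPM in WT. Every C75S library was higher, by 0.19 on the log2 scale (SE 0.05, edgeR adjusted p = 0.0496). This call lay at the threshold: 11 of 15 alternative fits kept it, and leaving out any of 4 libraries ended it, with an edgeR adjusted p of 0.13 for C75S replicate 2, 0.182 for C75S replicate 3, 0.145 for WT replicate 1 and 0.255 for WT replicate 2. Over 1048 bases its longest transcript shares 88.9% of its letters with *H2-D1*, so its unique count is uncertain in the same way. *H2-T23*, which encodes the Qa-1 molecule that presents leader peptides of other class I chains, was at 100.4, 105 and 110.4 CPM in C75S and 109.8, 109.9 and 113 CPM in WT (log2 fold change -0.07, edgeR adjusted p = 0.593). Of the 21 genes listed 16 were tested, with 1 called higher, beside 1.74% of all genes, and 0 called lower, beside 1.37%. The median log2 fold change was -0.06. An unadjusted p under 0.05 was reached by 3 of the 16, beside 13.4% of all genes. Besides *H2-Q10* these were *H2-Q6* (log2 fold change -0.34, edgeR adjusted p = 0.179) and *Fcgrt* (-0.19, 0.122), both lower in C75S.

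All 9 listed genes of peptide loading and editing in the endoplasmic reticulum were tested. Of the 9, 0 were called by edgeR, DESeq2 or limma-voom, beside 3.11% of all genes in edgeR. An unadjusted p under 0.05 was reached by 2 of the 9, beside 13.4% of all genes. Their median log2 fold change was 0.05. Calreticulin (*Calr*), a chaperone that holds empty class I molecules in the loading complex, was at 787, 807 and 875 CPM in C75S and at 665, 709 and 797 CPM in WT. WT replicate 3 overlapped the C75S libraries, and the log2 fold change of 0.19 (SE 0.06) did not pass (edgeR adjusted p = 0.125). For calnexin (*Canx*), which folds new heavy chains, the difference was 0.01 on the log2 scale (edgeR adjusted p = 0.959). The oxidoreductase *Pdia3*, a partner of tapasin, had one of 0.09 (0.483), the peptide editor *Tapbpl* one of 0.08 (0.765) and the trimming peptidase *Erap1* one of -0.06 (0.710), all in edgeR.

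The 19 listed genes of the constitutive proteasome and its activators gave 0 calls with edgeR, DESeq2 or limma-voom, beside 3.11% of all genes (edgeR). At an unadjusted p under 0.05 there was 1, beside 13.4% of all genes, and the median log2 fold change was 0.02. The activator subunits *Psme1* and *Psme2*, which are interferon-inducible and open the proteasome core, differed by 0.01 on the log2 scale (edgeR adjusted p = 0.969) and 0.08 (0.764). All 6 listed peptidases of cytosolic trimming were tested, with 0 called by any of the 3 tools, beside 3.11% of all genes in edgeR. At an unadjusted p under 0.05 there were 0 of the 6, beside 13.4% of all genes, and the median log2 fold change was 0.01. Of the 11 listed class II genes, 1 could be tested (*H2-Ab1*, a class II beta chain, edgeR adjusted p = 0.845), 0 were called by any of the 3 tools, and 4 had 0 counts in every library.

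**Figure D4:**
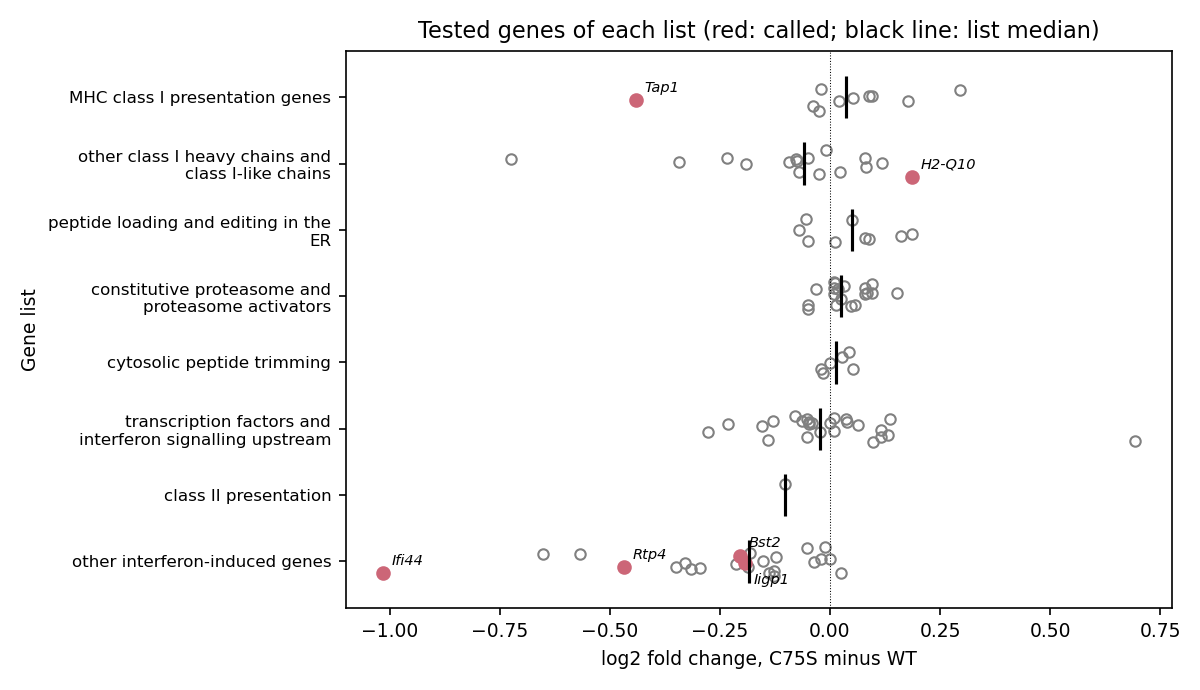
Log2 fold change of C75S against WT (horizontal axis) for every tested gene of 8 gene lists (rows), with red points for genes that passed the test over all genes, open points for the others and black lines at list medians. The class I presentation genes have 1 red point, *Tap1*, left of 0, and the interferon-induced genes lie left of 0 in 23 of 24 cases.

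The listed transcription factors and interferon signalling genes upstream of class I gave 0 calls among 25 tested with edgeR, DESeq2 or limma-voom. In edgeR 3.11% of all genes tested were called. At an unadjusted p under 0.05 there were 2 of the 25, beside 13.4% of all genes. These were *Irf9* (log2 fold change -0.23, edgeR adjusted p = 0.0668) and *Irf7* (-0.28, 0.277), both lower in C75S. Of the 25, 12 had a positive and 13 a negative log2 fold change, and the median was -0.02. *Irf1*, an interferon-induced activator of class I and immunoproteasome genes, was at 31.7, 28.3 and 24.7 CPM in C75S and 29.7, 24.1 and 25.2 CPM in WT (log2 fold change 0.10, edgeR adjusted p = 0.726). *Rfx5*, a DNA-binding partner in the class I and class II enhanceosome, was lower in every C75S library, at 17.3 to 18.1 CPM against 19.02 to 20.7 CPM in WT, but did not pass (log2 fold change -0.16, edgeR adjusted p = 0.491).

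Of 25 listed interferon-induced genes outside the presentation pathway, 24 were tested. In edgeR 4 were called lower in C75S, beside 1.37% of all genes tested, and 0 were called higher, beside 1.74%. In 11 of the 24 every C75S library was lower, beside 8.96% of all genes tested, and 12 had an unadjusted p under 0.05, beside 13.4%, in either direction. The median log2 fold change was -0.18 against 0.04 for the 10 presentation genes. The list was drawn up with earlier results of these libraries known, so its direction is not independent evidence. *Ifi44*, an interferon-induced cytoplasmic protein, fell from 8.00 to 3.96 CPM (group means), by 1.01 on the log2 scale (SE 0.16, edgeR adjusted p = 0.000228). *Iigp1*, an immunity-related GTPase, fell by 0.19 on the log2 scale (adjusted p = 0.0292), *Bst2*, or tetherin, by 0.20 (0.0372), and *Rtp4*, a receptor-transporting protein, by 0.47 (0.0477). *Ifi44* kept its call in all 15 alternative fits. *Iigp1* lost its call in 5 of them (adjusted p up to 0.139, without C75S replicate 1), *Bst2* in 5 (up to 0.192, without WT replicate 2) and *Rtp4* in 7 (up to 0.239, without C75S replicate 2). The pathway lists outside the 10 genes had 16, 9, 19, 6, 25, 1 and 24 tested genes. Over these lists 5 genes were called, beside 3.11% of all genes tested. Leaving out 1 library gave from 1 (without C75S replicate 3 or WT replicate 2) to 8 (without C75S replicate 1).

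Cells other than hepatocytes also express class I genes, so their markers were read in the same libraries. Of the 10 hepatocyte markers all were detected, 5 with a positive and 5 with a negative log2 fold change (median 0.01). Albumin alone was at 55643 to 66472.5 CPM in C75S and 63097 to 70067 CPM in WT (log2 fold change -0.15, edgeR adjusted p = 0.347). Only 1 of the 10 was called, beside 3.11% of all genes. This was *Fgb*, a fibrinogen chain, which was higher, at 1592 to 1764 CPM in C75S and 1259 to 1360.3 CPM in WT (by 0.32 on the log2 scale, edgeR adjusted p = 0.00112). All 10 T and NK cell markers had 0 counts in all 6 libraries. Of 7 dendritic cell markers 5 were at 0 throughout, as were 3 of 6 B cell and 5 of 7 neutrophil markers. The 12 Kupffer cell and macrophage markers summed to 97.5 to 141 CPM in C75S and 104 to 135 CPM in WT, nearly all from *Cd68*. The defining markers *Clec4f*, *Vsig4*, *Timd4* and *Adgre1* had between 0 and 5 counts in any library. Other macrophage markers were low but present: *Csf1r* had 13 to 27 counts per library (edgeR adjusted p = 0.922) and *C1qb* 4 to 21. *C1qa* had 2 to 5 counts in C75S libraries and 5 to 18 in WT libraries, too few to be tested.

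Endothelial markers summed to 32.6 to 44.2 CPM in C75S and 31.9 to 42.01 CPM in WT, mostly from *Stab2* at 20.5 to 32.7 CPM. Of the 6 endothelial markers tested, 5 had a positive log2 fold change and 1 a negative one (median 0.51). *Pecam1*, *Lyve1* and *Kdr* were higher in every C75S library, as were 9.02% of all genes tested. None of the 6 was called by edgeR, DESeq2 or limma-voom, and 2 had an unadjusted p under 0.05, beside 13.4% of all genes. Summed levels of stellate cell markers were 59.1 to 76.0 CPM in C75S and 73.4 to 94.98 CPM in WT. Of the 6 stellate markers tested, 3 had a positive and 3 a negative log2 fold change (median 0.04). Only 1 of the 6 was called, beside 3.11% of all genes: *Acta2*, a smooth muscle actin, which was higher (edgeR adjusted p = 0.0255). Neutrophil markers had 0 counts in every C75S library and 1 to 3 counts in each WT library, too few to tell the genotypes apart. Summed cholangiocyte markers did not overlap between the genotypes, at 181 to 237 CPM in C75S and 161 to 169 CPM in WT. Of the 6 cholangiocyte markers tested, 4 had a positive and 2 a negative log2 fold change (median 0.49). An unadjusted p under 0.05 was reached by 3 of the 6, beside 13.4% of all genes. Every C75S library was higher in 2 of the 6, beside 9.02% of all genes. Only 1 of the 6 was called, beside 3.11% of all genes. This was *Krt19*, a bile duct keratin, which was higher (by 0.80 on the log2 scale, edgeR adjusted p = 0.00151). *Cftr* was at 0 counts throughout. The part of these markers in the differences of *Tap1*, *H2-Q10* and the interferon-induced genes was not tested.

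**Figure D5:**
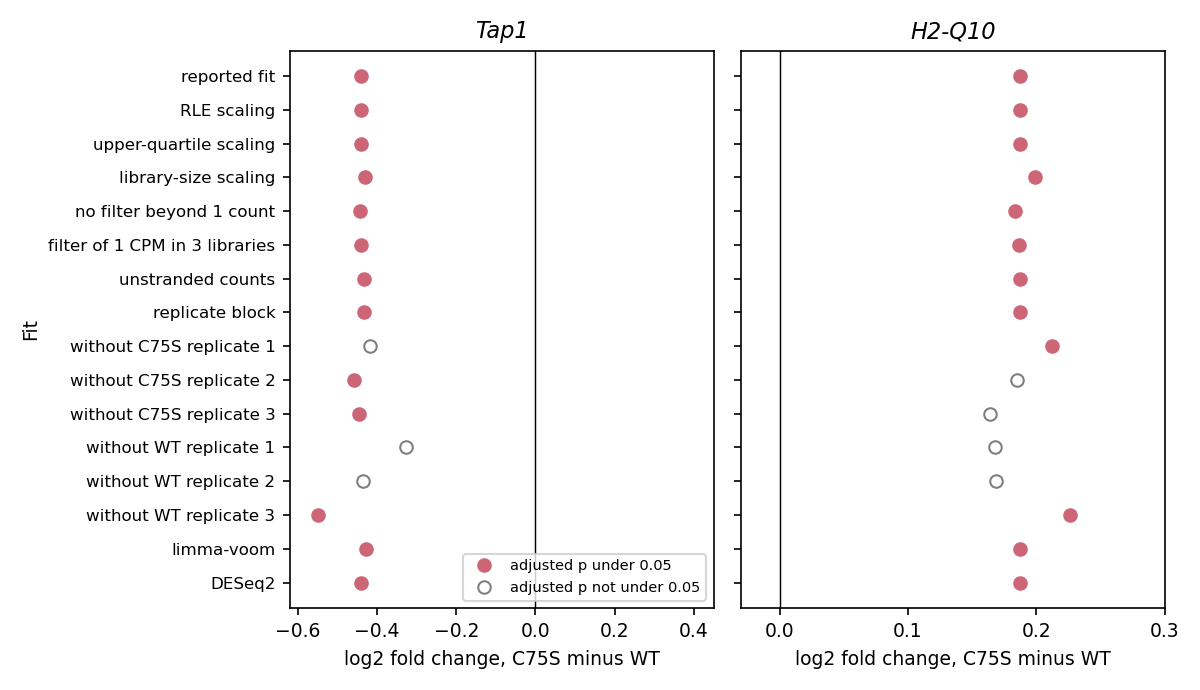
Log2 fold change of *Tap1* (left) and *H2-Q10* (right) in the reported fit and each of 15 alternative fits (rows), with filled points for an adjusted p under 0.05 and open points for the rest. *Tap1* stays between -0.55 and -0.33 and *H2-Q10* between 0.16 and 0.23, and every open point is a fit that left out 1 library.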

How the data were processed

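The authors deposited raw counts for each Ensembl gene of 6 hepatocyte libraries (3 C75S, 3 WT, grouped by sample title), in the layout STAR writes, with an unstranded column and 1 for each strand. Trim Galore 0.6.6, STAR 2.7.9a, edgeR 3.36.0 and the builds mm10 and GRCm38 are named in the submitters' processing notes. The annotation release is not given in the sources used here. Reverse-strand counts, 33.3 times the forward-strand counts, were used. Summary rows were dropped: multimapping reads, 17.98% to 18.54% per library, were not counted to genes. Libraries held 16944723 to 21044292 gene counts. Of 55487 gene rows 55227 matched GENCODE M21 (GRCm38), the source of positions and exon lengths.

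Genes passing filterByExpr (minimum count 10, minimum total 15) were scaled by TMM, and genotype was tested by a robust quasi-likelihood F-test in edgeR 4.0.16 under R 4.3.3, with Benjamini-Hochberg adjustment over 12741 genes at a threshold of 0.05. Standard errors are the log2 fold change over the square root of F. Alternatives used limma 3.58.1 and DESeq2 1.42.0. Similar transcripts were found with BLAST 2.17.0. The fit was tested on simulated data for this comparison. Over 12583 genes it called 71.7% of 200 genes changed by 1.5-fold, and 7.79% of its calls were false. Smaller changes, such as the fold of 0.737 for *Tap1* and 1.14 for *H2-Q10* (C75S over WT), were not simulated. The genes, lists and tests were chosen with earlier results of these data known. Named genes were the 10 genes, every called gene of the pathway lists and a fixed set of counterparts, of which 1 is not reported here. *H2-Ab1*, *H2-Q6*, *Fcgrt*, *Irf9*, *Irf7*, *Fgb*, *Krt19*, *Acta2* and the other cell markers given were named after their values were seen.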

Additional observations from a re-analysis of the deposited data

How the results depend on the processing

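Of the 10 class I presentation genes, 1 was called in each of the 9 alternative fits that kept all 6 libraries, and 0 to 1 when a library was left out. Their median log2 fold change, 0.04, moved by less than the spread between libraries in all 15. All genes called, 3.11% of those tested in the reported fit, ranged from 201 to 355 without 1 library. The 5 called genes of the other pathway lists ranged from 1 to 8. With no filter beyond 1 count they were 9, where 573 of 23278 genes were called. The cause of these shifts was not tested. No scaling changed the direction of any of the 10 genes. Counting without strand turned *Tap2* to 0.048 and *Psmb8* to 0.0033. Leaving out 1 library gave ranges that crossed 0 for *B2m* (-0.046 to 0.017), *Tap2* (-0.11 to 0.043), *Nlrc5* (-0.027 to 0.057), *Canx* (-0.025 to 0.056), *Psme1* (-0.032 to 0.033), *Psmb5* (-0.029 to 0.046), *Psmb6* (-0.021 to 0.11) and the log2 difference of the *Psmb8* to *Psmb5* ratio (-0.12 to 0.023). None of these was called. *Calr* passed under library-size scaling, without a filter, without WT replicate 3 and with the replicate block.

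Replicate numbers are shared by the genotypes, but deviations from the group means of same-numbered libraries correlated at 0.017, -0.04 and 0.025, so the numbers were not taken as pairs. With the replicate block 480 genes were called against 396, and 1 of the 10 genes, *Tap1* (log2 fold change -0.43, edgeR adjusted p = 0.0117).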
